A study of Mus musculus with 75 samples.

Results

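Interleukins are secreted messengers between leukocytes, epithelial cells and stromal cells, and the 84 genes described here are those of the mouse genome whose Ensembl 96 symbol starts with Il and a digit and which encode a protein. They were taken from a table of 55536 genes, 22028 of them protein-coding, and carry 82 different symbols because Il11ra2 stands for 3 gene identifiers. By role they comprised 37 ligands, 40 receptor chains, 6 soluble inhibitors or decoy receptors and 1 enzyme, Il4i1, which is named after interleukin 4 because that cytokine induces it. Poly A RNA of 1 right lung lobe, the inferior, was sequenced in 75 male C57BL/6JRj mice. Bleomycin, a DNA-damaging antibiotic, was given once into the trachea, and separate mice were sampled later, 10 of them at day 7, 12 at each of days 14, 21, 28 and 35, and 7 at day 42. The mice were 12 to 14 weeks old when bleomycin was given, so those of later days were older at sampling. No sampling day is given for the controls in the sources used here. The control mice (n = 10), which are labelled saline, received no bleomycin. The study's methods describe the control animals as untreated, whereas its figure legends describe saline given into the trachea. Bleomycin mice were included only when they had lost 5 to 17% of body weight on day 6, so that animals with a stronger or weaker response were not represented. The lungs had been lavaged before the lobe was removed, which depletes cells of the airspace. All 6 comparisons with saline rest on the same 10 control mice and are therefore not independent of each other.

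Interleukins act through receptors that share chains, and the families below follow that sharing. IL-1 family ligands signal through a pair of receptor chains and MyD88, and are restrained by a soluble antagonist (Il1rn), a decoy receptor (Il1r2) and a binding protein for interleukin 18 (Il18bp). The cytokines of the gp130 family (Il6, Il11) use the common subunit Il6st, whereas those of the gamma chain family (Il2, Il4, Il7, Il9, Il15, Il21) mostly use Il2rg and signal through JAK and STAT proteins. In the fibrotic lung, interleukins of several of these families are known for recruiting leukocytes, for activating fibroblasts and for polarising macrophages.

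The 6 genes with the largest increases on day 14 were Il6, Il23a, Il1r2, Il12b, Il1rn and Il11. The 250 bases upstream of their RefSeq transcription starts (GRCm38.p6) are shown, read 5′ to 3′ on the gene's own strand. Capitals mark matches, on either strand, to 4 binding motifs of factors acting downstream of interleukin receptors, namely AP-1 (TGANTCA), C/EBP (TTGCNNAA), STAT (TTCNNNGAA) and the kappaB motif. Il23a had no entry in the promoter table. Il1rn had 3 listed starts and Il11 had 2, and for each the single start whose window held a match is shown, a choice made after the matches were seen.
Il6, chr5:30012864-30013113, plus strand: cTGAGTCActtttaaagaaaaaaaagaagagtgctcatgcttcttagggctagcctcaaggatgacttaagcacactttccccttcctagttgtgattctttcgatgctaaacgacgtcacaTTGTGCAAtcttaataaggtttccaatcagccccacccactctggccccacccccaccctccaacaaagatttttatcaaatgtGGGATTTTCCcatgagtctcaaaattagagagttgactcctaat
Il1r2, chr1:40085843-40086092, plus strand: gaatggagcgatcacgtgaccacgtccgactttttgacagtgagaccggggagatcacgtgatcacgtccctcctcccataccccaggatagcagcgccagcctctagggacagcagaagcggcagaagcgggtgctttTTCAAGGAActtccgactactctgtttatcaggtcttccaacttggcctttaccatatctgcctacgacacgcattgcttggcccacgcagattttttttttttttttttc
Il12b, chr11:44399813-44400062, plus strand: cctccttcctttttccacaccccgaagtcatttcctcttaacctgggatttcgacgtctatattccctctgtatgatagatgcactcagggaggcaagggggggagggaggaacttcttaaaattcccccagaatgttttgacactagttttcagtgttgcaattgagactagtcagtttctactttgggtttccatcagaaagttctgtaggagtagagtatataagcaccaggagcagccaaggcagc
Il1rn, chr2:24336610-24336859, plus strand: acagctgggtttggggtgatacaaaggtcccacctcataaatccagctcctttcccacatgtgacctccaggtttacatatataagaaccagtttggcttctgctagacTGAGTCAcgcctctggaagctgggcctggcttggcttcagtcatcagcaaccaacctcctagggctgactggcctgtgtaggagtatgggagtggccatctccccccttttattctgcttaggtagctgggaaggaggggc
Il11, chr7:4778142-4778391, minus strand: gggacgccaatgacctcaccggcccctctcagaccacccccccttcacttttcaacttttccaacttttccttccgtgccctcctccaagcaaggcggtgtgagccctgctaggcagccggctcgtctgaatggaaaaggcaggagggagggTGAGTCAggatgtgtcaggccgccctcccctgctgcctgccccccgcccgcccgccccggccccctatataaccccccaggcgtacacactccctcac

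The Il6 window held 3 matches, an AP-1 match that began 249 bases before the start, a C/EBP match 128 bases before it and a kappaB match 44 bases before it. Il1rn and Il11 each held 1 AP-1 match, 141 and 98 bases before the start, and Il1r2 held 1 STAT match 111 bases before it. No match to the 4 motifs was found in the Il12b window. Of all 32851 promoters of this length in the table, 6.75% held an AP-1 match, 9.56% a C/EBP match, 7.02% a STAT match and 7.25% a kappaB match. Among the 80 promoters of the 65 symbols that had an entry, the shares were 17.5%, 17.5%, 10.0% and 7.5%, respectively. These matches are letters in a window and were not tested as binding sites.

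Libraries held 9240291 to 14665247 counts assigned to genes (median 10677163). In bulk tissue a lower value can mean fewer cells of a type or less RNA per cell, and these cannot be told apart. The 9 markers of monocyte-derived macrophages were all higher on day 14 than in saline and their summed level had a median of 1240 CPM (counts divided by the scaled library size) against 202.7 CPM, while all 6 natural killer cell markers and all 6 B cell markers were lower and 6 of 7 type 2 alveolar epithelial markers were lower. 3 libraries stood apart from their groups. Neutrophil markers summed to 584 CPM in day 14 mouse 8 (group median 85.56 CPM), skeletal muscle markers to 1822 CPM in day 28 mouse 10 (group median 4.058 CPM), and thymocyte markers to 45.65 CPM in saline mouse 9 (group median 15.56 CPM). For several values that rest on these libraries, the result without them is given as well. Il33 on day 14 and Il12b on day 14 against saline, where mouse 8 was the lowest, are given with all mice only.

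Of the 84 genes, 52 had enough counts to be tested, namely 32 of 40 receptor chains, 15 of 37 ligands, 4 of 6 inhibitors or decoys and Il4i1. A gene was called when its Benjamini-Hochberg adjusted p, computed over all 16221 genes tested, was below 0.05 in edgeR's quasi-likelihood test. In comparison with saline, 21 interleukin genes were upregulated and 6 downregulated on day 7, when 24.8% of all genes tested were called up and 21% down. The corresponding numbers were 24 up and 10 down at day 14 (32.4% and 29.9% of all genes), 25 up and 11 down at day 21 (28.3% and 25.8%), and 20 up and 6 down at day 28 (24.1% and 19.2%). At day 35, 16 genes were up and 4 down (16.9% and 13.1%), and at day 42, 16 were up and 6 down (13.7% and 11%). As shares of the 52 genes, increases made up 40.4%, 46.2%, 48.1%, 38.5%, 30.8% and 30.8% from day 7 to day 42, and decreases 11.5%, 19.2%, 21.2%, 11.5%, 7.69% and 11.5%. The share of interleukin genes called up was thus above that of all genes on each day, and the share called down was below it on all days but day 42. The median log2 fold change of the 52 genes was 0.22 on day 14, compared with 0.01 over all genes. A low-count gene can pass the filter through the group in which it is high, so these counts describe the 52 genes only.

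**Figure D1:**
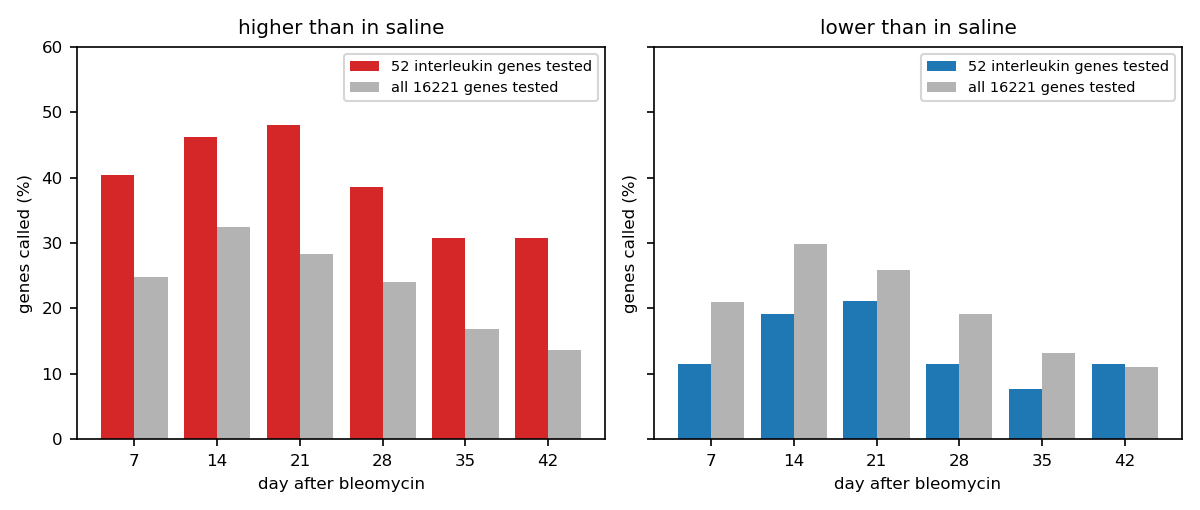
Share of genes called in each comparison with saline (percent, vertical axis) by day after bleomycin (horizontal axis), for the 52 interleukin genes tested (coloured bars) and for all 16221 genes tested (grey bars). The left panel gives genes called higher and the right panel genes called lower; interleukin increases made up 46.2% on day 14 against 32.4% of all genes.

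Of the 52 genes, 44 were called on at least 1 day, 32 of them up and 12 down, and 0 went both ways. These are 84.6%, 61.5% and 23.1% of the 52, compared with 75.6% of all genes tested that were called on at least 1 day, 39.6% that were called up and 36.6% that were called down. 10 genes (Il1rn, Il18bp, Il1r1, Il18r1, Il12b, Il7, Il13ra1, Il10ra, Il34 and Il4i1) were upregulated on all 6 days, and 3 receptor genes (Il6ra, Il15ra and Il17rd) were downregulated on all 6. Over all genes, 8.33% were upregulated on all 6 days and 5.31% downregulated, against 19.2% and 5.77% of the 52. The increase was at its highest on day 14 for 18 of the 32 upregulated genes, against 3 genes at day 7, 3 at day 21, 1 at day 28, 4 at day 35 and 3 at day 42. That share, 56.2%, was close to the 51.4% among all upregulated genes. Leaving out each of the 75 mice in turn, 139 of the 165 calls against saline were kept in every refit.

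**Figure D2:**
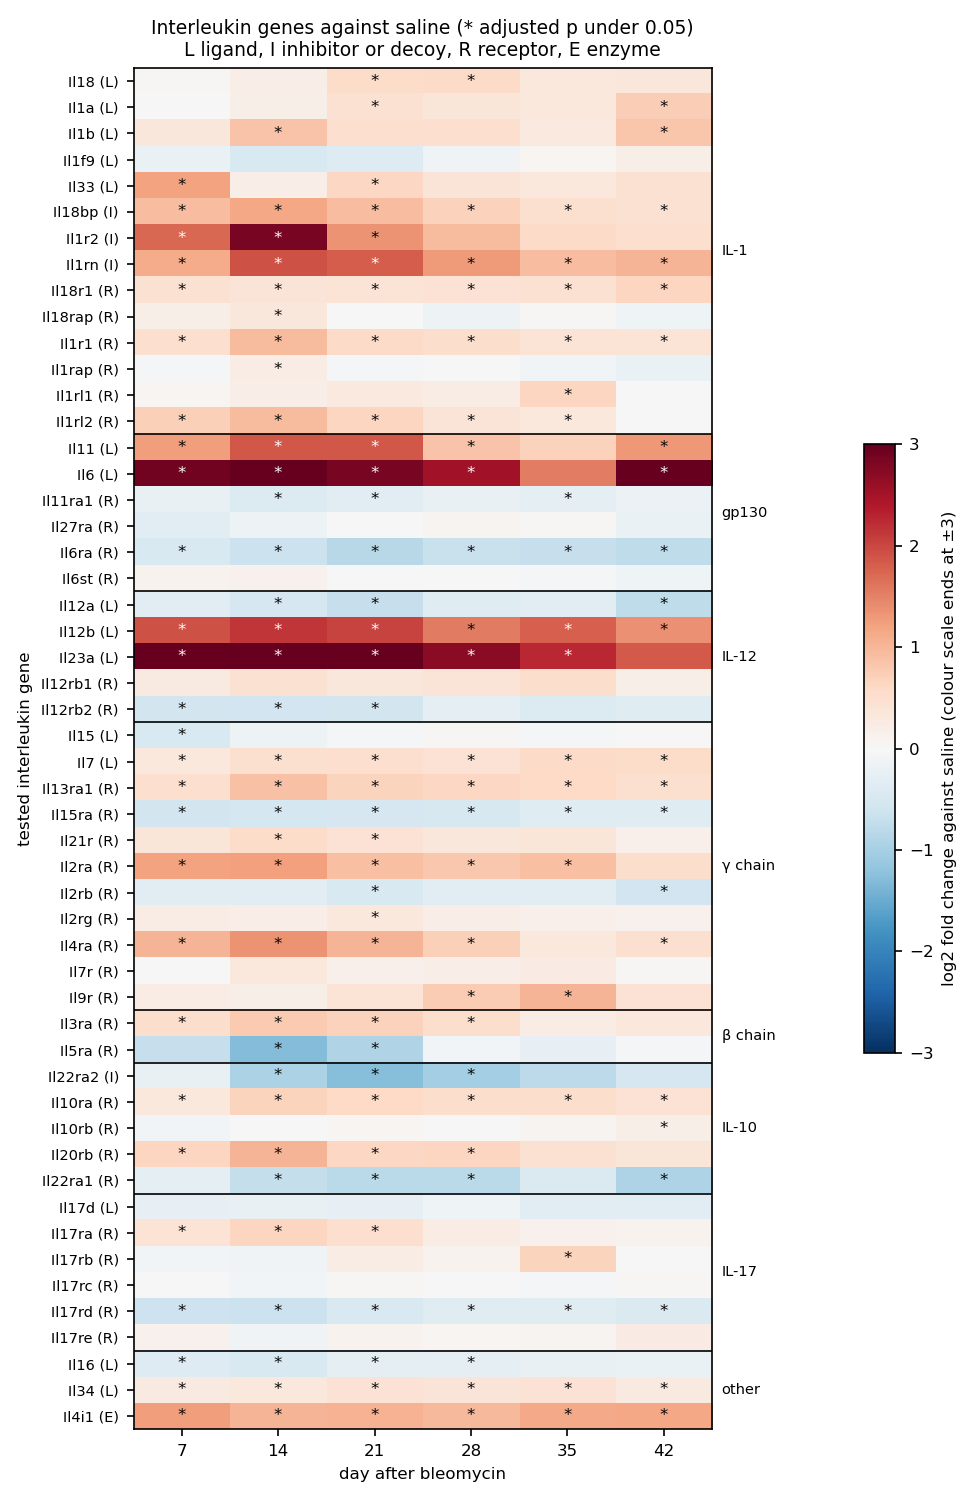
Log2 fold change against saline (colour; the scale ends at plus and minus 3) of the 52 tested interleukin genes (rows, grouped by receptor family) on the 6 days after bleomycin (columns). Asterisks mark adjusted p under 0.05; Il6, Il23a and Il1r2 are the darkest red cells on day 14, at 3.62, 3.28 and 2.85, and Il6ra, Il15ra and Il17rd are blue with an asterisk on every day.

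In the IL-1 family, all 3 tested inhibitors or decoys named by the symbol rule rose on day 14, by 1.16 to 2.85 on the log2 scale. Of the 5 tested ligands, Il1b alone was called that day, at 0.87. Il1f5, an inhibitor of interleukin 36 signaling, held 3 counts in all mice and was not tested, nor was the difference between these roles. Sigirr, an inhibitory receptor that the symbol rule leaves out, had a lower mean on day 14 (24.6 CPM) than in saline (31.8 CPM). Of the family's 14 tested genes, 9 were upregulated on day 14 and 0 downregulated, compared with 32.4% and 29.9% of all genes. Among the 9, the calls of Il18rap and Il1rap were lost without the 3 libraries that stood apart. Il1rn, the interleukin 1 receptor antagonist (chromosome 2, 24336853 to 24351494), had a lowest, median and highest level of 4.59, 7.09 and 7.87 CPM in saline and of 14.8, 23.5 and 44.6 CPM on day 14, so that the groups did not overlap. Its log2 fold change was 1.92 ± 0.25 (SE; adjusted p = 1.03e-09), and it was still 1.02 ± 0.28 on day 42 (adjusted p = 0.00478). Il18bp, which captures interleukin 18, rose from a median of 6.03 CPM (range 4.58 to 8.43) in saline to 14.1 CPM (range 9.64 to 17.3) on day 14, again without overlap (log2 fold change 1.16 ± 0.14, adjusted p = 2.44e-10). Il18bp shares 80 of its 3026 exonic bases with Numa1 on the opposite strand, a gene with 150673 counts over all mice against 8340, and whether strand was used in counting is not given in the sources used here. Il18bp was upregulated on all 6 days, although the day 42 call (0.45, adjusted p = 0.0347) was lost when any 1 of 6 mice was left out, with an adjusted p of up to 0.116.

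Il1r2, the decoy receptor for interleukin 1 (chromosome 1, 40074079 to 40125231), ranged from 0.533 to 1.59 CPM in saline with a median of 0.875 CPM. On day 14 its lowest, median and highest levels were 1.48, 3.46 and 38.5 CPM. The highest value belonged to day 14 mouse 8, in which the neutrophil markers were also highest. With all mice the log2 fold change was 2.85 ± 0.43 (adjusted p = 3.74e-08), and without the 3 libraries that stood apart it was 2.02 (adjusted p = 3.03e-06). The further rise from day 7 to day 14 (1.12, adjusted p = 0.0302) was not called without them (0.32, adjusted p = 0.542), whereas the decrease from day 14 to day 42 was called with all mice (-2.35, adjusted p = 8.34e-05) and without them (-1.55, adjusted p = 0.0014). The part of neutrophil content in these values was not tested beyond that.

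The ligands of this family followed different courses. Il33, an alarmin stored in epithelial and stromal nuclei (chromosome 19, 29925114 to 29960718), ranged from 94.2 to 127.5 CPM in saline (median 101.8 CPM) and from 167.6 to 298.8 CPM on day 7 (median 254.4 CPM), with no overlap (log2 fold change 1.21 ± 0.24, adjusted p = 2.28e-05). On day 14 the mice spread from 17.4 to 198.2 CPM around a median of 135.9 CPM, and the difference from saline was 0.19 ± 0.23 (adjusted p = 0.465). Mice on day 14 thus lay both far below and above all controls, and the fall from day 7 to day 14 was 1.02 on the log2 scale (adjusted p = 9.2e-04). The summed type 2 alveolar epithelial markers were 16740 to 28680 CPM on day 7 and 6220 to 23130 CPM on day 14, against 22240 to 27120 CPM in saline, and their part in the Il33 values was not tested. Il33 was upregulated again on day 21 (0.61, adjusted p = 0.0185), a call that was lost without day 21 mouse 9 (adjusted p = 0.06).

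Il1b, the pyrogenic ligand processed by caspase-1, ranged from 4.8 to 13.5 CPM in saline (median 6.73 CPM) and from 6.46 to 36.5 CPM on day 14 (median 10.1 CPM), and the groups overlapped. Its log2 fold change on day 14 was 0.87 ± 0.24 with all mice (adjusted p = 0.00153) and 0.62 without the 3 libraries that stood apart (adjusted p = 0.0184). On day 42 it was 0.82 ± 0.27 (adjusted p = 0.0213), a call that was lost without day 42 mouse 1 (0.56, adjusted p = 0.138) or mouse 3. Il1a was upregulated on day 21 (0.46 ± 0.16, adjusted p = 0.0123) and on day 42, when all 7 mice (5.53 to 7.68 CPM) lay above all 10 controls (3.23 to 4.69 CPM; 0.73 ± 0.18, adjusted p = 0.00178). Il18, the interferon-gamma-inducing ligand, was upregulated on day 21 (0.56 ± 0.18) and day 28 (0.56 ± 0.18), and Il1f9 was called on no day.

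5 receptor genes of this family and the decoy Il1r2 lie in tandem on the plus strand of chromosome 1, and they did not move alike. Il1r1, the signaling receptor (40225080 to 40317257), rose from a median of 60.96 CPM (52.2 to 77.6) to 99.2 CPM (79.7 to 229.5) on day 14 without overlap (0.94 ± 0.13, adjusted p = 1.09e-08). It was called on all 6 days, but the day 42 call (0.41, adjusted p = 0.0397) was lost without a filter on low counts (adjusted p = 0.0638) and when any 1 of 11 mice was left out (adjusted p up to 0.11). Its neighbour Il1rl2, the receptor for interleukin 36 (40324610 to 40367562), rose by 0.94 ± 0.13 as well (adjusted p = 1.69e-09), and stood at 0.02 ± 0.14 on day 42 (adjusted p = 0.951). Il18r1, the interleukin 18 receptor chain (40465552 to 40500854), was upregulated on all 6 days, between 0.39 and 0.64 on the log2 scale, and on day 42 its 7 mice lay above all controls. Il1rl1, the receptor for interleukin 33 (40429570 to 40465415), was upregulated on day 35 (0.65 ± 0.17, adjusted p = 0.00284) and had log2 fold changes of 0.02 to 0.29 on the other days, none of them called. Il18rap (40515362 to 40551705) and the shared chain Il1rap on chromosome 16 were called up on day 14 at 0.34 and 0.23, and both calls were lost without the 3 libraries (0.19, adjusted p = 0.243; 0.14, adjusted p = 0.204).

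**Figure D3:**
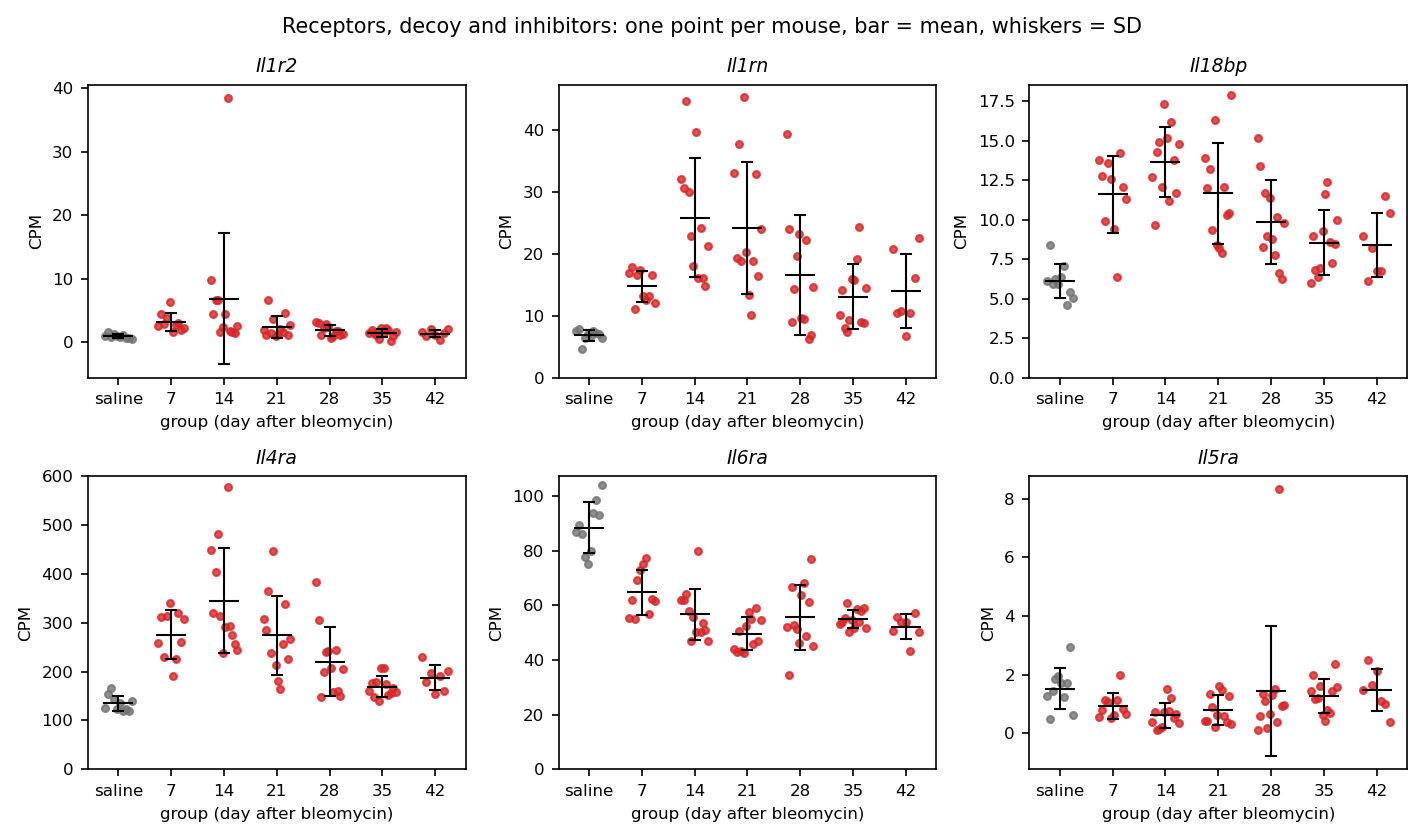
Level in CPM (vertical axis, linear, a scale per panel) of 3 inhibitors or decoys and 3 receptor chains in each mouse, by group (horizontal axis: saline in grey, days after bleomycin in red). Horizontal bars are means and whiskers SD; the single high Il1r2 point on day 14 is mouse 8 at 38.5 CPM and the single high Il5ra point on day 28 is mouse 10 at 8.32 CPM.

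In the gp130 family both tested ligands rose, Il6ra fell on all 6 days, Il11ra1 fell on 3 days and the other 2 tested receptor chains were not called against saline. Il6, an acute-phase cytokine (chromosome 5, 30013114 to 30019981), was close to the detection limit in saline, with 0 to 6 counts per mouse and 0 to 0.407 CPM (median 0.154 CPM). It was present in all 12 mice on day 14 at 0.832 to 7.89 CPM (median 1.97 CPM), each above every control, with a log2 fold change of 3.62 ± 0.56 (adjusted p = 8.55e-08). Without the 3 libraries that stood apart the value was 3.20 (adjusted p = 1.53e-06). Il6 was also called at day 7 (2.90 ± 0.59), day 21 (2.85 ± 0.58) and day 28 (2.53 ± 0.59). At day 35 the change of 1.54 ± 0.63 was not called (adjusted p = 0.055), although it was in 12 of the refits without a mouse. On day 42 the mean was 1.63 ± 1.79 CPM (SD, n = 7) and the median 0.75 CPM, since mouse 1 reached 5.04 CPM and mouse 7 reached 3.18 CPM while the others lay at or below 0.863 CPM. The day 42 change of 3.11 ± 0.62 (adjusted p = 1.19e-04) was 2.48 in the refit that lowered it most and was called in every refit without a mouse.

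Il11, a cytokine known for acting on fibroblasts (chromosome 7, 4772373 to 4782859), rose from a median of 0.907 CPM (0.543 to 1.48) in saline to 2.31 CPM (1.74 to 2.85) on day 7, with no overlap (1.26 ± 0.35, adjusted p = 0.00257). On day 14 it ranged from 1.23 to 9.4 CPM around a median of 2.86 CPM (1.86 ± 0.34, adjusted p = 2.76e-06) and on day 21 from 1.15 to 11.5 CPM around 1.98 CPM (1.87 ± 0.34, adjusted p = 4.1e-06). The mice of these later groups spread more widely than those of day 7. The call on day 42 (1.31 ± 0.38, adjusted p = 0.00833) was lost without mouse 1 (0.89, adjusted p = 0.0856), and that on day 28 (0.84, adjusted p = 0.0426) was lost when any 1 of 12 mice was left out (adjusted p up to 0.0912).

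Il6ra, the ligand-binding chain for interleukin 6, was downregulated on all 6 days. Its lowest, median and highest levels were 75.1, 88.2 and 103.8 CPM in saline, 46.8, 54.8 and 79.9 CPM on day 14, and 43.4, 53.8 and 57.1 CPM on day 42. The log2 fold change was -0.64 ± 0.08 on day 14 (adjusted p = 9.23e-10) and -0.84 ± 0.08 on day 21 (adjusted p = 5.62e-13), and on days 21, 35 and 42 every mouse lay below every control. Il11ra1, the corresponding chain for interleukin 11, was downregulated on days 14 (-0.42 ± 0.10), 21 (-0.34 ± 0.10) and 35 (-0.27 ± 0.10), the last of which was lost when any 1 of 4 mice was left out (adjusted p up to 0.061). Il6st, the common signal-transducing chain, lay between -0.13 and 0.14 on the log2 scale and was called on no day. Il27ra was not called either.

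**Figure D4:**
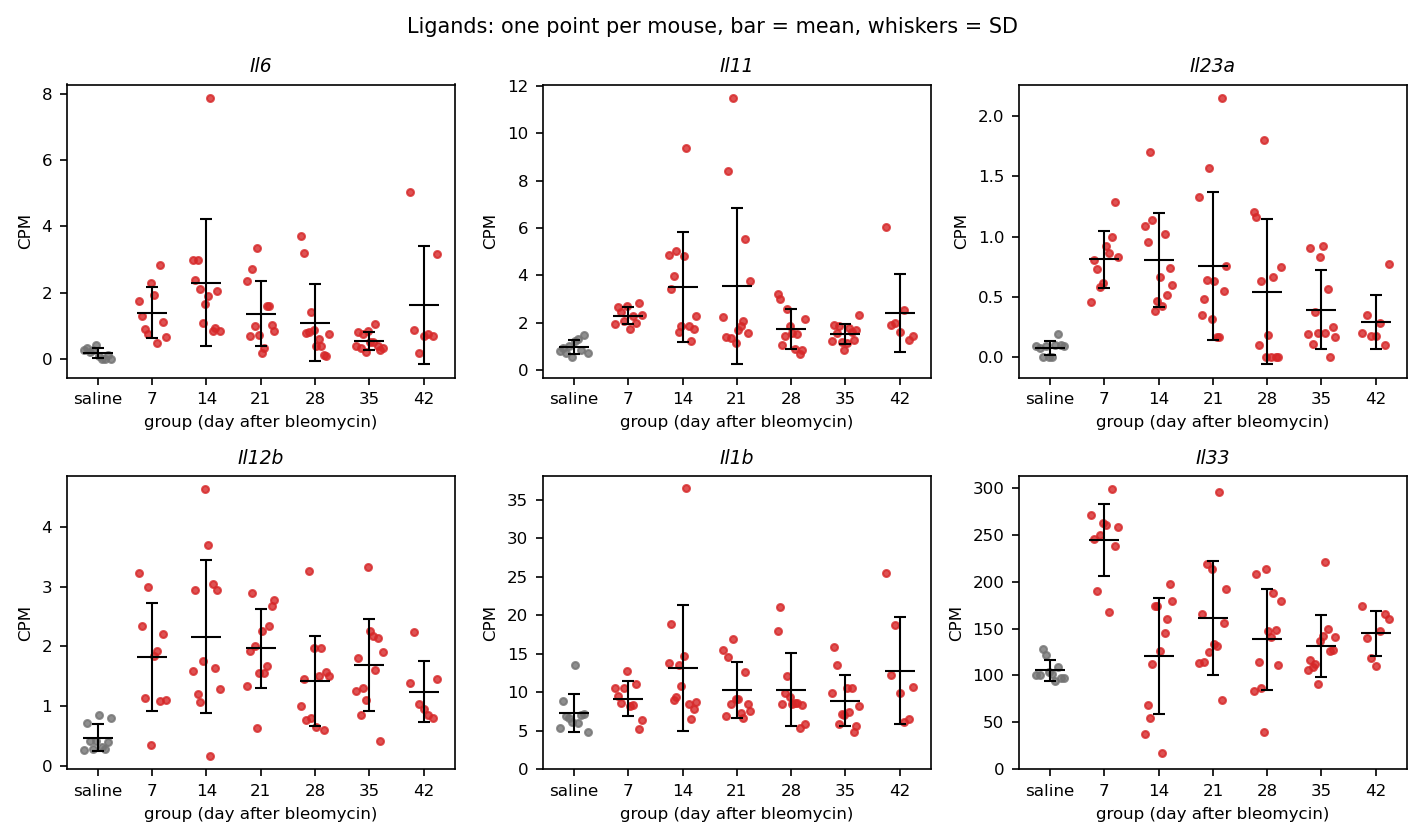
Level in CPM (vertical axis, linear, a scale per panel) of 6 interleukin ligands in each mouse, by group (horizontal axis: saline in grey, days after bleomycin in red). Horizontal bars are means and whiskers SD; Il6 and Il23a exceed every control in all day 7 and day 14 mice, and Il33 is highest on day 7, at a median of 254.4 CPM, and widely spread on day 14.

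In the IL-12 family, the 2 subunits of interleukin 23 rose, and Il12a, a subunit of interleukin 12 that interleukin 23 lacks, fell on days 14, 21 and 42. Il23a, which encodes p19 (chromosome 10, 128296139 to 128298752), had 0 to 2 counts in each saline mouse and 8 counts in all 10 of them. All 10 mice on day 7 (5 to 14 counts, 0.461 to 1.29 CPM) and all 12 on day 14 (5 to 17 counts, 0.382 to 1.7 CPM) exceeded every control. The fitted log2 fold changes were 3.29 ± 0.61 on day 7 (adjusted p = 9.7e-06), 3.28 ± 0.60 on day 14 (adjusted p = 2.81e-06) and 1.85 ± 0.75 on day 42, which was not called (adjusted p = 0.0614). With so few control counts these folds are imprecise. Il12b, the p40 subunit shared by interleukins 12 and 23 (chromosome 11, 44400063 to 44414033), was upregulated on all 6 days. It rose from 0.27 to 0.856 CPM in saline (median 0.401 CPM) to 0.168 to 4.63 CPM on day 14 (median 1.7 CPM), where 11 of 12 mice lay above all controls and mouse 8 below them (2.16 ± 0.34, adjusted p = 1.76e-07). Il12a, the p35 subunit, was downregulated on days 14 (-0.51 ± 0.20), 21 (-0.68 ± 0.20) and 42 (-0.77 ± 0.23), and the call on day 14 was lost without saline mouse 7 or saline mouse 4 (adjusted p up to 0.0671).

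Of the receptor chains of this family, Il12rb1 was not called. Il12rb2, the signal-transducing chain for interleukin 12, was downregulated on days 7 (-0.55 ± 0.22), 14 (-0.57 ± 0.21) and 21 (-0.54 ± 0.21), and the calls on days 7 and 21 were lost when any 1 of 7 mice and when 1 mouse was left out (adjusted p up to 0.0922 and 0.0535). It shares 1519 of its 3794 exonic bases with Serbp1 on the opposite strand, and whether strand was used in counting is not given in the sources used here, so its value is uncertain. Il23r did not pass the filter, with 2 to 16 counts per mouse.

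The type 2 cytokines Il4, Il5 and Il13 were hardly detected, whereas Il4ra and Il13ra1, which form a receptor for interleukins 4 and 13, were upregulated on days 7 and 14. These 3 genes, which lie together on chromosome 11 between 53602982 and 53725106, held 45 (Il4), 91 (Il5) and 23 counts (Il13) in all 75 mice, with no more than 3, 6 and 3 in any mouse, and were not tested. Il4ra, the chain common to the receptors for interleukins 4 and 13 (chromosome 7, 125552120 to 125579474), had a lowest, median and highest level of 119, 131 and 166 CPM in saline, 191, 284 and 341 CPM on day 7, and 238, 304 and 578 CPM on day 14. Neither of these groups of bleomycin mice overlapped the controls (day 7, 1.03 ± 0.15, adjusted p = 4.04e-08; day 14, 1.36 ± 0.14, adjusted p = 1.69e-12). From day 14 to day 42 it fell by 0.88 on the log2 scale (adjusted p = 1.79e-05), and all 7 mice on day 42 lay below all 12 on day 14. What remained on day 42 (0.47, adjusted p = 0.0237) was not called without mouse 1 (adjusted p = 0.0658).

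Il13ra1, the partner chain for interleukin 13, was upregulated on all 6 days and exceeded every control on days 7, 14, 21 and 42. Its median was 65.03 CPM (55.9 to 69.8) in saline and 108.5 CPM (81.2 to 165.3) on day 14 (0.88 ± 0.12, adjusted p = 5.43e-09). Il13ra2, a decoy for interleukin 13, was not tested, with a count in 2 of 10 saline mice, 7 of 10 on day 7 and 9 of 12 on day 14. Of 10 listed target genes of interleukins 4 and 13 in macrophages and epithelium, 7 were upregulated on day 14 and 0 downregulated. Over all genes, 32.4% were called up and 29.9% down that day. The median log2 fold change of the targets was 1.48 against 0.01 over all genes. The upregulated targets included Arg1 (4.57), which encodes an arginine-degrading enzyme of macrophages, Retnla (3.57) and Mrc1 (1.83). They also included Clca1 (5.73), a product of goblet cells, with a mean close to the detection limit in saline (0.047 CPM) and of 2.99 CPM on day 14. Muc5ac, also listed, had means of 1.209 and 1.355 CPM. The markers of monocyte-derived macrophages given above were higher on day 14 as well. From day 7 to day 14, 2 targets were called up and 2 down, and 7 of 9 macrophage markers up and 0 down. Over all genes, 9.48% were called up and 7.55% down between these days. The part of macrophage content in the target values was not tested.

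Among the other genes of the gamma chain family, Il2ra, the high-affinity chain for interleukin 2, was upregulated from day 7 (1.21 ± 0.28, adjusted p = 2.69e-04) to day 35 (0.89 ± 0.27). Il7, a survival factor for lymphocytes, was upregulated on all 6 days, between 0.32 and 0.57 on the log2 scale (the day 7 call was lost when any 1 of 8 mice was left out, adjusted p up to 0.088), and its receptor chain Il7r was not called on any day with all mice. The shared chain Il2rg was called on day 21 (0.31) and Il21r on days 14 (0.55 ± 0.18) and 21 (0.42 ± 0.18), the latter lost when any 1 of 13 mice was left out (adjusted p up to 0.0976). Without the 3 libraries that stood apart, Il7r and Il2rg were called up on day 14 (adjusted p = 0.0328 and 0.0086). Il15ra fell on all 6 days, from a median of 14.6 CPM (11.6 to 17.4) in saline to 9.58 CPM (7.09 to 14.4) on day 14 (-0.53 ± 0.10, adjusted p = 2.23e-06). Its ligand Il15 was downregulated on day 7 (-0.45 ± 0.13, adjusted p = 0.00246) and was called on no later day. Il2rb, carried by natural killer cells and some T cells, was downregulated on days 21 (-0.45) and 42 (-0.56), calls that were lost when any 1 of 2 and of 5 mice was left out (adjusted p up to 0.0561 and 0.0887). The natural killer cell markers were lower as well, with a median sum of 17.68 CPM on day 21 against 43.63 CPM in saline, and their part in the Il2rb values was not tested. The Il9r call on day 28 (0.77, adjusted p = 0.0482) rested on day 28 mouse 10, at 15.8 CPM, and was lost without the 3 libraries (0.37, adjusted p = 0.327), whereas the increase on day 35 (1.01 ± 0.33, adjusted p = 0.0135) was called in every refit without a mouse.

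In the beta chain family, Il5ra and Il3ra moved in opposite directions. Il5ra, the interleukin 5 receptor chain of eosinophils and some B cells, ranged from 0.477 to 2.96 CPM in saline (median 1.59 CPM) and from 0.0998 to 1.52 CPM on day 14 (median 0.584 CPM), a log2 fold change of -1.31 ± 0.41 (adjusted p = 0.00457). The call on day 21 (-0.91, adjusted p = 0.0488) was lost when any 1 of 30 mice was left out (adjusted p up to 0.119). Il5ra rose from day 14 to day 42 by 1.27 ± 0.45 (adjusted p = 0.023), a call that was lost without day 42 mouse 2 (adjusted p = 0.0721) or mouse 4. B cell markers had a median sum of 195.5 CPM in saline, 80.44 CPM on day 14 and 130.9 CPM on day 42, and in day 28 mouse 10 both Il5ra (8.32 CPM) and the B cell markers (384.2 CPM) were the highest of their group. The part of B cell content in the Il5ra values was not tested. Il3ra was upregulated on days 7 to 28 and highest on day 14, when all 12 mice (29.3 to 50.3 CPM) exceeded all controls (17.4 to 23.1 CPM; 0.79 ± 0.12, adjusted p = 4.61e-08).

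In the IL-10 family, 2 receptor chains rose and both interleukin 22 binding molecules fell. Il10ra was upregulated on all 6 days and highest on day 14 (0.66 ± 0.12, adjusted p = 3.45e-06), although the day 7 call was lost when any 1 of 14 mice was left out (adjusted p up to 0.0951) and the day 42 call without day 42 mouse 3 (adjusted p = 0.0743). Il20rb was upregulated on days 7 to 28 (1.02 ± 0.19 on day 14, adjusted p = 4.84e-06). Il22ra1, the epithelial receptor chain for interleukin 22, was downregulated on days 14 (-0.73 ± 0.22), 21 (-0.82 ± 0.23), 28 (-0.81 ± 0.23) and 42 (-0.94 ± 0.27). Il22ra2, its soluble binding protein, was downregulated on days 14 (-0.95 ± 0.32), 21 (-1.28 ± 0.33) and 28 (-1.02 ± 0.33). Of 5 airway epithelial markers 4 were lower on each of days 14, 21 and 28, and 1 was higher on days 21 and 28. On day 42, 1 was lower and 1 higher. Their median sum was 26150 CPM in saline and 7138 CPM on day 14, and their part in the values of Il22ra1 and Il22ra2 was not tested. Il10rb was called on day 42 (0.17, adjusted p = 0.0355), a call that was lost when any 1 of 11 mice was left out (adjusted p up to 0.0816).

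In the IL-17 family, Il17rd, a receptor-like inhibitor of growth factor signaling, was downregulated on all 6 days. Its median fell from 71.1 CPM (64.6 to 85.0) in saline to 49.4 CPM (35.9 to 56.1) on day 7 and 48.1 CPM (32.5 to 62.2) on day 14, and on both days every mouse lay below every control (day 14, -0.64 ± 0.10, adjusted p = 4.38e-08). Il17ra, the common receptor chain, was upregulated on days 7 to 21 (0.64 ± 0.12 on day 14, adjusted p = 2.11e-06). Il17rb, the receptor for interleukin 25, was called on day 35 (0.66, adjusted p = 0.0305), which was lost when any 1 of 6 mice was left out (adjusted p up to 0.0858), and it shares 141 exonic bases with Actr8 on the opposite strand. Il17rc, Il17re and Il17d were not called on any day.

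The remaining genes belong to none of these families. Il34, a ligand of the macrophage receptor Csf1r, was upregulated on all 6 days by 0.27 to 0.43 on the log2 scale, and on day 42 the call (adjusted p = 0.0343) was lost when any 1 of 8 mice was left out (adjusted p up to 0.108). Il16 was downregulated on days 7 to 28 (-0.47 ± 0.11 on day 14). Its day 28 call (-0.27, adjusted p = 0.0418) was lost with library size alone as scaling, without a filter on low counts and in DESeq2 (adjusted p up to 0.0832), and when any 1 of 11 mice was left out (adjusted p up to 0.0906). Il16 also shares 1202 of 7865 exonic bases with Stard5 on the opposite strand. Il4i1 was upregulated on all 6 days (1.02 ± 0.24 on day 14). Its value is uncertain because 3423 of its 4080 exonic bases overlap Tbc1d17 on the opposite strand.

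Between days, the increases of day 14 had receded in part by day 42. From day 7 to day 14, 6 interleukin genes were called up and 1, Il33, down (9.48% and 7.55% of all genes). From day 14 to day 42, 4 were called up and 14 down (15.2% and 18.8% of all genes). The 4 were Il5ra, Il1a, Il10rb and Il17re, and 13 of the 14 had been upregulated on day 14, Il6st being the exception. Both comparisons rest on the same day 14 mice, which favours this overlap, and it was not computed over all genes. Il1rl2 fell by 0.93 on the log2 scale (adjusted p = 6.53e-07), with all 7 mice of day 42 below all 12 of day 14, and Il18bp fell by 0.70 (adjusted p = 3.99e-04). With all mice, Il6, Il11 and Il12b were not called between these days, with differences of -0.52 ± 0.48, -0.55 ± 0.35 and -0.79 ± 0.35. Without the 3 libraries that stood apart, Il12b was called lower on day 42 than on day 14 (adjusted p = 0.025).

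Per kilobase of exon, Il6st and Il33 were the most abundant of the 52 genes in saline, at 50.7 ± 3.6 and 36.6 ± 3.8 RPKM (CPM divided by exon length in kilobases; SD, n = 10). They were followed by Il4ra at 22.5 ± 2.6 RPKM, Il10rb at 18.3 ± 1.0 RPKM, Il18r1 at 18.3 ± 3.4 RPKM and Il13ra1 at 17.2 ± 1.3 RPKM, of which the last 3 lay closer together than the SD of Il18r1. Receptor chains thus led the order, and Il33 was the only ligand among the first 10. Of these 10 genes, 9 were also among the first 10 when the longest transcript was used as the length.

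The 32 genes under the filter were 22 ligands, 8 receptor chains and 2 inhibitors or decoys. Of these, 19 never exceeded 3 counts in a mouse, 5 of them with no count at all, and 13 did. Il17a held 8 counts over all 75 mice and no more than 1 in any mouse. Il24, a cytokine of the IL-10 family, had 0 counts in the 10 saline mice and 1 to 5 counts in each of the 10 mice of day 7. Against an assumed 3 counts over the saline group, the ratio of Il24 levels was 10.5 on day 7 and 9.8 on day 14. The counts of these days were taken as observed, without their own uncertainty. On day 14 only 5 of 12 mice had a count and mouse 8 held 14 of the 36. Il10 held 9 counts in saline, 60 on day 14 and 7 on day 42, and in the fit without a filter it differed between days 14 and 42 (adjusted p = 0.0212). Il20ra had a count in 2 of 10 saline mice, 8 of 12 on day 14 and 9 of 12 on day 21, and Il21 in 1 of 10, 4 of 12 and 9 of 12.

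**Figure D5:**
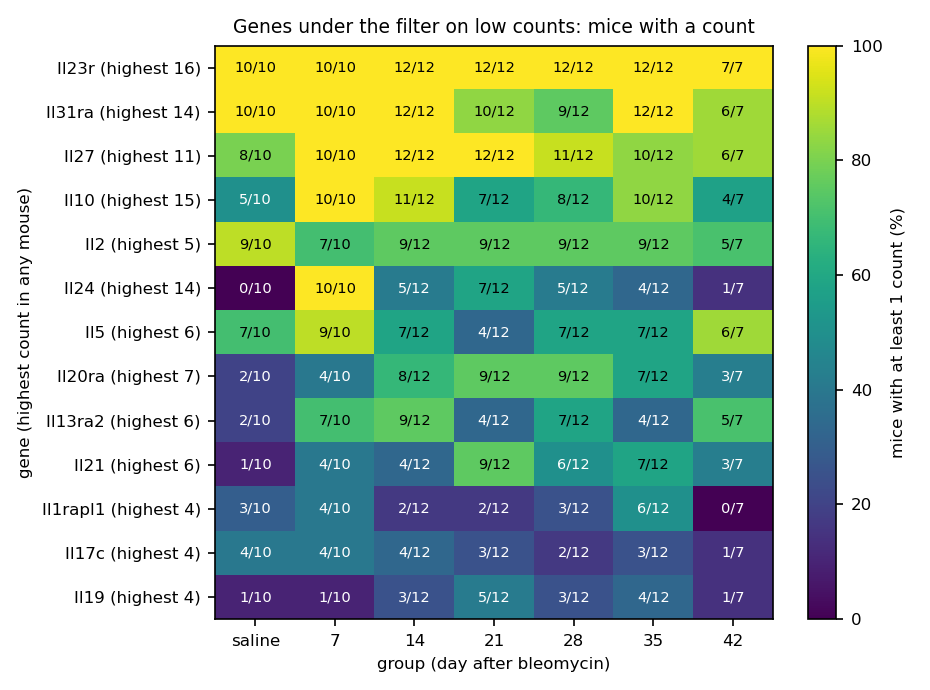
Number of mice with at least 1 count (colour: percent of the group; text: mice of the group) for the 13 genes under the filter whose highest count exceeded 3 (rows, with that highest count) in saline and on each day (columns). Il24 goes from 0 of 10 saline mice to 10 of 10 on day 7, and Il23r is present in every mouse of every group.

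Genes that work with these interleukins but fall outside the symbol rule were read on day 14 against the 32.4% of all genes called up, the 29.9% called down and the median log2 fold change of 0.01 over all genes. Of 10 partner receptor chains, 7 were upregulated on day 14 and 3 downregulated (median log2 fold change 0.96), among them Csf2rb (1.57), the beta chain that signals for Il3ra and Il5ra, and Osmr (1.03), a partner of Il6st, while Lifr fell (-0.69). Of 7 tested partner ligands, 3 rose and 2 fell on day 14 (median 0.29), and Lif (2.86) and Osm (1.61), both of which use Il6st, rose. Of 13 genes of interleukin 1 receptor signaling and caspase-1 processing, 8 rose and 0 fell on day 14 (median 0.38), including Pycard (1.14), the inflammasome adaptor, and Myd88 (0.69). Among 15 JAK, STAT and SOCS genes, 6 rose and 2 fell, a share of increases near that of all genes, and the median was 0.06, with Socs3 (2.07), a feedback inhibitor of gp130 signaling, showing the largest increase and Stat5b (-0.47) the largest decrease. Of 6 genes of interleukin 17 receptor signaling, 4 rose and 1, Traf3ip2 (-0.38), fell (median 0.48).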

How the data were processed

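Total counts per gene and mouse were used as deposited by the authors, who aligned single-end reads with STAR 2.7.0f to GRCm38 with the Ensembl 96 annotation; the counting program is not given in the sources used here. Gene names, coordinates and exon lengths came from the same annotation. edgeR 4.0.16 (R 4.3.3) was used with TMM scaling, its default filter on low counts and 1 quasi-likelihood fit of all 75 mice in 7 groups; SE is the log2 fold change divided by the square root of F. CPM used the same scaling. Replicate numbers did not pair the mice: same-numbered deviations correlated with a median of -0.0016 over 204 pairs. No 2 mice of a group agreed within sampling noise. Alternatives were DESeq2 1.42.0, other scalings and filters, pairs of groups alone, a replicate block and single mice left out. Leaving out 3 libraries together was chosen after seeing the data. The genes and lists were chosen with earlier results of these data known. Values were given in full for a list of key genes and for the 3 largest increases and decreases among called genes on days 7, 14 and 42; other members were named in their family's account. The fit was tested on simulated data. The p-values set the difference between group means against the spread between mice of the same group.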

Additional observations from a re-analysis of the deposited data

Results flagged for a closer look

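Among the key genes, 99 groups of at most 10 mice were examined for a mouse far from the rest of its group, and 8 had one, where chance gives about 1 in 20. In saline, mouse 3 was lowest in Il1rn (4.59 CPM) and mouse 2 lowest in Il7r (14.6 CPM). On day 7, mouse 7 was lowest in Il18bp (6.34 CPM), and mouse 3 was lowest in both Il6st (410 CPM) and Il17rb (0.162 CPM). On day 42, mouse 5 was lowest in Il1r2 (0.281 CPM), and mouse 1 was highest in Il6st (627 CPM) and Il11 (6.03 CPM).

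The effect of bleomycin differed between days 7 and 14 for 6 of the key genes, given here as the log2 difference of day 14 against day 7 in the edgeR fit. It was higher on day 14 for Il13ra1 (0.383), Il1r1 (0.429), Il1r2 (1.118), Il1rn (0.808) and Il10ra (0.349), and lower for Il33 (-1.019). The call for Il13ra1 was lost without day 14 mouse 8 (adjusted p = 0.0518), that for Il1r1 without day 14 mouse 1 (adjusted p = 0.0797) or mouse 8, and that for Il1r2 without day 14 mouse 8 (adjusted p = 0.54), day 14 mouse 1, day 7 mouse 6 or day 7 mouse 9. The Il10ra call was lost when any 1 of 8 mice was left out (adjusted p up to 0.128).

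Between days 14 and 42 the effect differed for 10 of them. It was higher on day 42 for Il5ra (1.266) and Il1a (0.553). It was lower on day 42 for Il13ra1 (-0.395), Il6st (-0.271), Il23a (-1.432), Il1r1 (-0.534), Il1r2 (-2.349), Il1rn (-0.89), Il4ra (-0.882) and Il18bp (-0.701). The Il5ra call was lost without day 42 mouse 2 (adjusted p = 0.0721) or mouse 4. The Il13ra1 call was lost without day 42 mouse 4 (adjusted p = 0.0546) and the Il23a call when any 1 of 6 mice was left out (adjusted p up to 0.0706). Causes of these differences were not tested.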

How the results depend on the processing

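Each count of called interleukin genes was recomputed under 9 alternatives and without each mouse; the counts that moved by over 1.5 times are given here. Testing only the 2 groups compared gave 10 genes down at day 7 (6 in the fit of all groups), 8 down at day 35 (4) and 3 genes called between days 7 and 14, 2 of them up (7 and 6). Requiring at least 10 counts in every mouse left 38 genes tested and gave 22 called at day 14 with 5 down (34 and 10), and 6 down at day 21 (11). Requiring a log2 fold change of at least 0.5 gave 3 down at day 7, 7 down at day 21, 3 down at day 28, 12 called with 1 down at day 35, 13 called with 9 up at day 42, 3 called with 2 up between days 7 and 14, and 11 called with 2 up and 9 down between days 14 and 42. Without a filter on low counts, 4 genes were called between days 7 and 14, 3 of them up, and 2 were up between days 14 and 42. With library size alone as scaling, 2 genes were down between days 7 and 14. Without saline mouse 9, day 14 mouse 8 and day 28 mouse 10, 3 were up and 2 down between days 7 and 14, and 2 were up between days 14 and 42. The causes were not tested, except that a minimum count or fold change leaves fewer genes to call.

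Leaving out single mice gave 14 to 22 genes called at day 42, 9 to 16 of them up. Between days 7 and 14 it gave 4 to 8 called, 2 to 7 up and 1 to 2 down, and between days 14 and 42 it gave 1 to 6 up. With the replicate number as a block, 27, 33, 36, 28, 24 and 21 genes were called from day 7 to day 42 (27, 34, 36, 26, 20 and 22 without it), 6 between days 7 and 14 and 19 between days 14 and 42; the numbers did not pair the mice. Over the genes named in full, 2006 values were recomputed under 8 of these alternatives (all but the minimum fold change), of which 1928 stayed on their side of the threshold, 42 newly passed it, 36 no longer did and 0 changed direction after having been called. Depth limits the genes with few counts, since Il6 and Il23a had 20 and 8 counts in all saline mice and most type 2 and IL-17 ligands could not be tested.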
